A study of Mus musculus with 8 samples.

Results

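A set of 44 genes of the cell division cycle was followed in RNA from sorted mouse Paneth cells. The members were the rows of the count table whose Ensembl gene ID maps to a fixed list of 44 symbols in the GENCODE mouse annotation, out of 55414 rows in all. All 44 symbols were matched, and all 44 genes were among the 11929 genes with enough counts to be tested. By role, 7 act at the entry into S phase, 11 in replication licensing and at the fork, 5 in nucleotide supply, 8 as mitotic cyclins, kinases and their partners, 4 in the mitotic checkpoint and mitotic exit, 6 at the spindle and kinetochore and 3 in chromosome structure.

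Paneth cells had been collected by FACS from the small intestine, in 4 libraries from mice carrying the diphtheria toxin transgene (genotype DT TG, here TG) and 4 from wild type mice (WT). In the TG mice the Paneth cells express diphtheria toxin, a protein that blocks translation in the cells that make it. No other treatment or allele is given for either group, and neither the promoter driving the toxin nor the age of the mice is stated in the material at hand. The study describes the series as expression profiles of purified cells after depletion of mature Paneth cells. The WT libraries are labelled as controls. The TG libraries hold the cells that the sort recovered, and the extent of depletion was not tested.

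The cell cycle is driven by cyclins, which activate cyclin-dependent kinases (CDKs) in turn. D cyclins with CDK4 or CDK6 relieve the block that pocket proteins place on E2F transcription factors, and E2F then switches on the genes for licensing replication origins, for the replication fork and for nucleotide synthesis. Genes for mitosis are switched on later, in G2 phase, through promoters that often carry a CHR element and CCAAT boxes and that are read by the DREAM and MuvB complexes with B-MYB and FOXM1. Mature Paneth cells are post-mitotic, whereas their neighbours at the crypt base, the Lgr5+ stem cells and their early progeny, divide continuously. In bulk RNA of sorted cells, a change in the share of cells that divide cannot be told apart from a change in RNA per cell.

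The promoters of the members held these letters to differing extents by role, and a few are shown as examples. A link between these letters and the fold changes below was not tested. Promoter sequences (250 bases before and 50 bases after the annotated start, mouse assembly GRCm38.p6, from RefSeq) were found for 35 of the 44 members. No sequence was found for Ccna2, Tpx2, Mcm4, Gins2, Kif20a, Ccnd2, Ccnd1, Ccne2 and Aurkb. On both strands, the E2F-type sequence TTTNNCGC, the CHR sequence TTTGAA and the CCAAT box were searched. Overlapping matches were allowed. Of all 32851 mouse promoters of this length, 5.17% held the E2F letters, 17.9% the CHR letters and 37.4% a CCAAT box. Among the 16 promoters of 14 replication and nucleotide supply members, 9 (56.2%) held the E2F letters and 1 (6.25%) the CHR letters. Mcm7 and Uhrf1 had 2 promoters each, and both of Uhrf1 are among those with the E2F letters. Among the 14 promoters of mitotic members, 1 (7.14%) held the E2F letters and 9 (64.3%) the CHR letters. The mitotic promoters without the CHR letters were those of Bub1, Birc5, Ccnb1, Cenpe and Nusap1. CCAAT boxes were found in 68.8% and 85.7% of the 2 sets. All 3 chromosome structure promoters (Mki67, Top2a and Hmgb2) held both the CHR letters and a CCAAT box. A match is a description of letters, and no binding was measured.

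The 2 replication promoters below are those of genes for MCM helicase subunits, with 3 and 2 matches of the E2F letters, and capitals mark those matches and the CCAAT boxes, on either strand.
Mcm6 (chr1:128359656-128359955, minus strand): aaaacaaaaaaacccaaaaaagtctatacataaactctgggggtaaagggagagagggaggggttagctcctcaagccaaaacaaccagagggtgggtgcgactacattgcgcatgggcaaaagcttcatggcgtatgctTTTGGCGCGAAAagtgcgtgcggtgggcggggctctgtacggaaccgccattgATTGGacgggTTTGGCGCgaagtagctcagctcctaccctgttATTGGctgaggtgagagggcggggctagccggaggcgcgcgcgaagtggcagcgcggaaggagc
Mcm5 (chr8:75109259-75109558, plus strand): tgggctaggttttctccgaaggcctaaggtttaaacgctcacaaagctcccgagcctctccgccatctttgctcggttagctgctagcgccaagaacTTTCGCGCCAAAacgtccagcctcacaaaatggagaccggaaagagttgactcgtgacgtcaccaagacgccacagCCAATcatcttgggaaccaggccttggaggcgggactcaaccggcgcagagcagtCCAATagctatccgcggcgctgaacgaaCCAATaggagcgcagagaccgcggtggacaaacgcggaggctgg
The next 3 belong to mitotic genes, cyclin B2, the spindle motor Kif11 and the kinetochore protein Cenpf, and capitals mark the CHR letters and the CCAAT boxes, on either strand.
Ccnb2 (chr9:70421505-70421804, minus strand): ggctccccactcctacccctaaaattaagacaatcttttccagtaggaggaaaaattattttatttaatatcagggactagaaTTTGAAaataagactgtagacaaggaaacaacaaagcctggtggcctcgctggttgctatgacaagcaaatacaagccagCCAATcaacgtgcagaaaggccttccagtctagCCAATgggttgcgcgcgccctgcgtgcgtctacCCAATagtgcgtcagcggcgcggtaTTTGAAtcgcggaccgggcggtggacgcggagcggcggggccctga
Kif11 (chr19:37376132-37376431, plus strand): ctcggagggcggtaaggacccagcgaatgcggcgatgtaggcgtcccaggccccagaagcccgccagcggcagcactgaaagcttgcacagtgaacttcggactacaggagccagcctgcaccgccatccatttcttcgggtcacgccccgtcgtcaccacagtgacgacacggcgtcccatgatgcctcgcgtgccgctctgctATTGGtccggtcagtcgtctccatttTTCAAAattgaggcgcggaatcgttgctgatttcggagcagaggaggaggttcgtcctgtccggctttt
Cenpf (chr1:189688037-189688336, minus strand): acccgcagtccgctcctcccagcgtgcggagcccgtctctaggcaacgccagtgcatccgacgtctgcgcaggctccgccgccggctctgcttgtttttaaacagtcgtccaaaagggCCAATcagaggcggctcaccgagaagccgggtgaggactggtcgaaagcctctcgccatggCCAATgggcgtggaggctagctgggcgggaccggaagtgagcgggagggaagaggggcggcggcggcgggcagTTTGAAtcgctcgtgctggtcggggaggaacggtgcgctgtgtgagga
The last is the promoter of Nusap1, the mitotic member that passed the test between TG and WT. It is printed in lower case throughout, since none of the 3 sequences was found in this window.
Nusap1 (chr2:119618048-119618347, plus strand): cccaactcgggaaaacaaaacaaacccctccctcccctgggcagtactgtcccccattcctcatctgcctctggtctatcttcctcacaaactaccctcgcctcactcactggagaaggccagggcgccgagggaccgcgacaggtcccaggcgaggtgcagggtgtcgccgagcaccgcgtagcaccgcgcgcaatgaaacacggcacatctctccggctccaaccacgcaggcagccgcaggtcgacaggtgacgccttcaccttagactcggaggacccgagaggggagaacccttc

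The libraries held 13107397 to 16218434 counts each. The members together took 0.113 to 0.139% of the counts in the TG libraries and 0.0908 to 0.159% in the WT libraries. WT replicate 3 was the highest of all, at 0.159% (95% Wilson interval 0.157 to 0.162%), while the other WT libraries lay between 0.0908 and 0.0964%. These shares overlapped between the groups (mean 0.128% ± 0.0134 for TG and 0.110% ± 0.0328 for WT as SD with n = 4 each, exact two-sided permutation test, p = 0.343, where the smallest p that 4 against 4 allows is 0.0286). In WT replicate 3, 40 of the 44 members had their highest WT level and 28 their highest level of all libraries. In WT replicate 2, 25 members had their lowest level of all libraries. The coefficient of variation between replicates of a member had a median of 10.4% in TG and 23.7% in WT, against 10.5% and 13.7% over all tested genes. The WT libraries were spread more widely than the TG libraries for 40 of the 44 members.

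The 11 listed Paneth markers, Lyz1, Defa24 and Itln1 among them, took 41.5 to 48.3% of the counts of every library. Of these 11 genes, 3 (27.3%, against 9.65% of all tested genes) were called lower in TG and 0 higher, namely Mptx2 (log2 fold change -1.35), Mmp7 (-0.59) and Ang4 (-0.57), and 1 was fitted above 0. Markers of the neighbouring stem cells were also present. The 9 crypt stem cell genes, Lgr5 and Olfm4 included, took 0.252 to 0.379% of the counts in TG and 0.229 to 0.340% in WT, where WT replicate 3 was again the highest (the other 3 WT libraries 0.229 to 0.257%). Of these 9 genes, 2 (Axin2 and Slc12a2) were called higher in TG and 1 (Smoc2) lower (22.2 and 11.1%). The summed enterocyte share was 0.0494 to 0.0665% in TG and 0.0396 to 0.0531% in WT, and 5 of its 11 genes were called higher (45.5%, against 8.26% of all tested genes) and 0 lower. The called genes were Apoa4 (log2 fold change 2.79), Alpi (2.56), Apob (1.07), Mttp (0.59) and Slc5a1 (0.42), and the median of the list was 1.56. Most of the enterocyte sum was Vil1. The other 10 enterocyte genes took 0.0153 to 0.0286% in TG and 0.00642 to 0.0117% in WT, with no overlap, a sum formed after the values were seen. For the whole lists the exact two-sided permutation p was 0.257 for the stem cell share and 0.0571 for the enterocyte share, and with 7 lists tested a single list could not pass an adjusted threshold in 4 against 4 libraries. Goblet cell genes took 0.943 to 1.29% of the counts of a library, tuft cell genes at most 0.00594% and enteroendocrine genes at most 0.00670%, and none of these genes was called (exact permutation p of the 3 shares 0.229 to 0.771). Of the 10 immune markers, Lyz2 had 133 to 454 counts in every library (log2 fold change 0.43, adjusted p = 0.484), 5 had at most 13 counts and 4 were at 0 in every library. The part of RNA from stem cells, enterocytes and other cells in the results on cell cycle genes was not tested.

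Levels of the members are compared here per length, as CPM (counts scaled to 1e+06 per library) with TMM scaling for library composition, divided by the kilobases of exon of the gene. Cdk4, the kinase partner of the D cyclins, was the highest at 24.1 CPM per kb over the 8 libraries. It was followed by Pcna, the sliding clamp of the replication fork, at 15.0 CPM per kb, and by the D cyclin gene Ccnd1 at 12.7 CPM per kb. Top2a, the topoisomerase that untangles sister chromatids, followed at 11.1 CPM per kb and Ccnd2, the other D cyclin gene of the set, at 9.84 CPM per kb. The E cyclin genes Ccne1 and Ccne2 lay at the bottom, at 0.692 and 0.645 CPM per kb. The ranges of neighbours in this order mostly overlapped. Cdk4 stood apart, with its lowest library above the highest library of every other member.

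**Figure D1:**
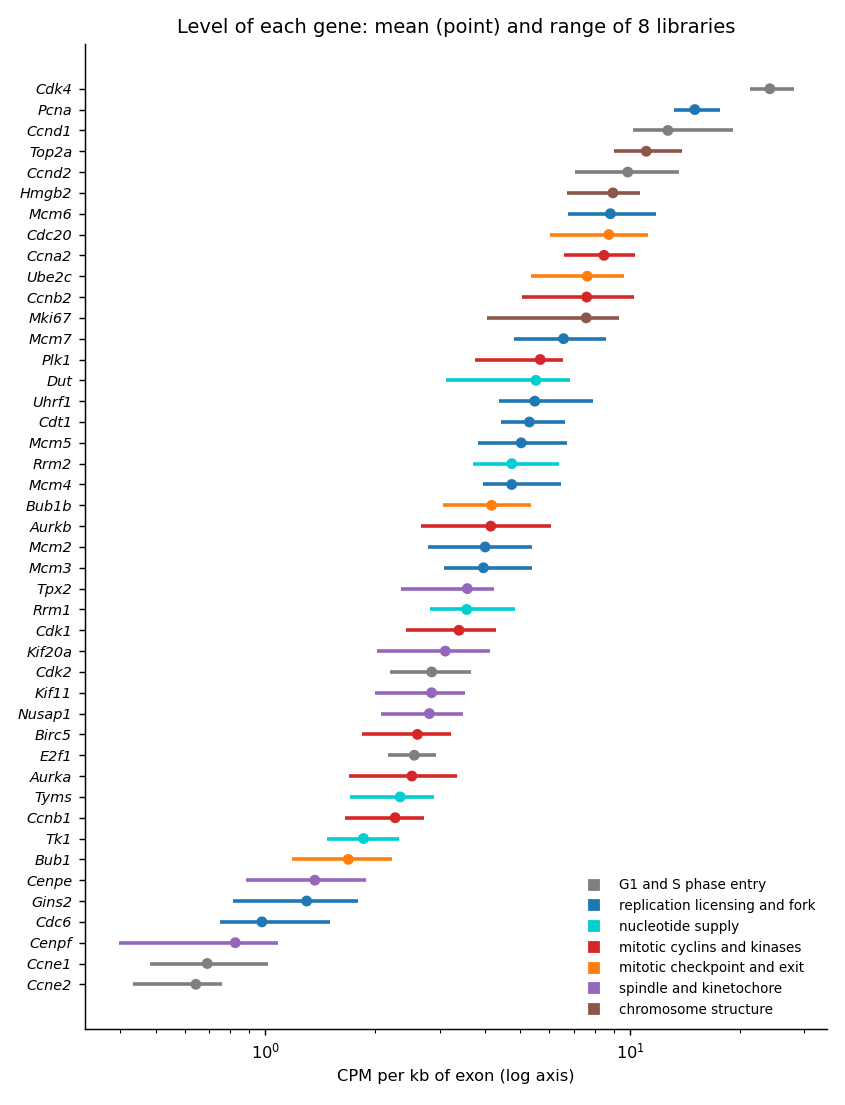
Mean level of each of the 44 genes over 8 libraries (points) with the lowest and highest library (lines), in CPM per kb of exon on a log axis, coloured by role. Cdk4 was the highest at 24.1 CPM per kb and Ccne2 the lowest at 0.645 CPM per kb.

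The groups of members varied together across the libraries to differing degrees. The mean pairwise correlation of log2 CPM over the 8 libraries, after subtracting the mean of each group, was 0.81 among the replication and nucleotide supply members, 0.69 among the 18 mitotic members and 0.71 between the 2 sets, against 0.00011 over all tested genes. Among the 7 genes of S phase entry it was 0.25. The value over all tested genes is kept small by the scaling between libraries, so it is no chance level for a set of this size. The points of these correlations are the same 8 libraries, so they share depth, scaling and the high WT replicate 3. In that library all 16 replication and nucleotide supply members had their highest level of all libraries, whereas 6 of the 18 mitotic members did.

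**Figure D2:**
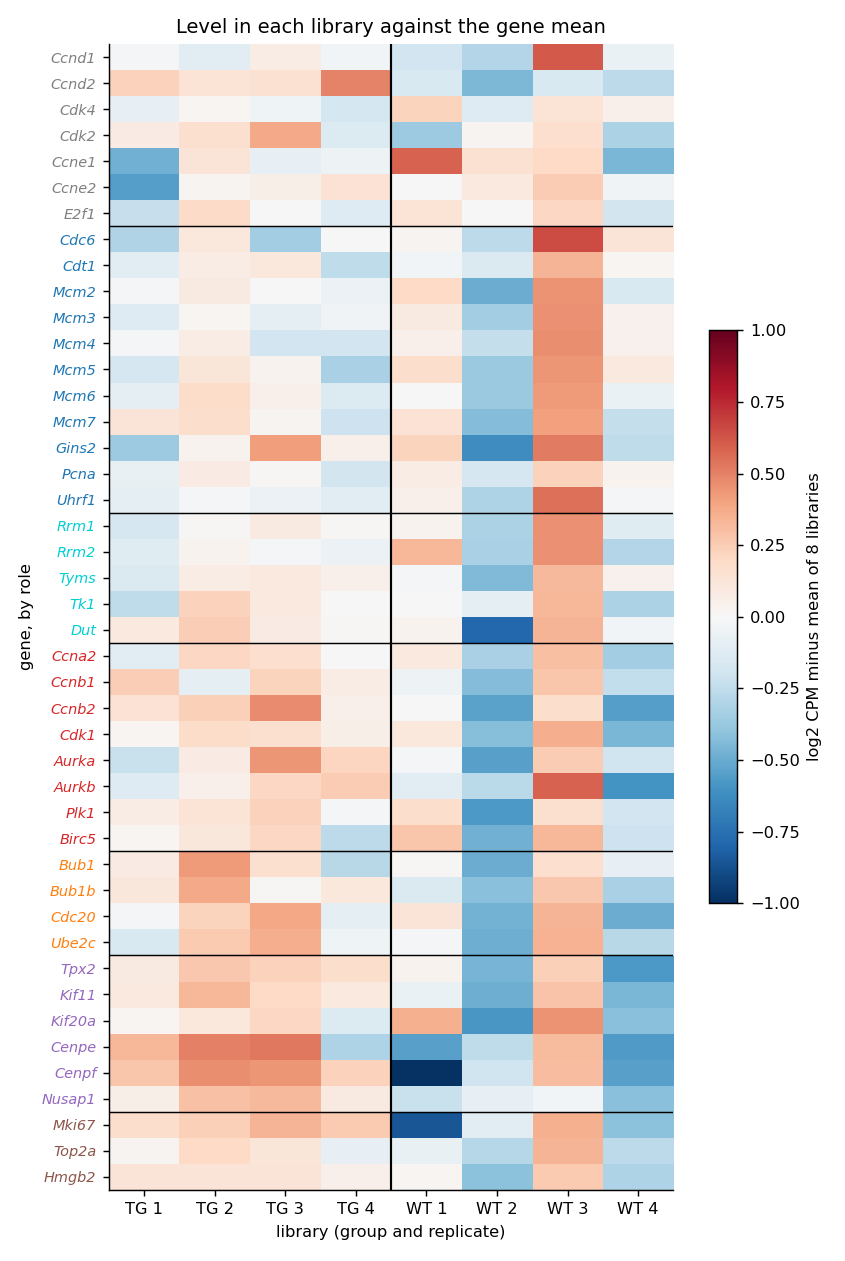
Level of each gene (rows, by role) in each library (columns), as log2 CPM minus the mean of the gene over 8 libraries, from blue (lower) to red (higher). The column of WT replicate 3 is red for most rows and that of WT replicate 2 blue, while Ccnd2 and Nusap1 are the rows with all TG libraries above all WT libraries.

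Between TG and WT, 2 of the 44 members were called higher in TG and 0 lower (edgeR quasi-likelihood test, Benjamini-Hochberg adjusted p below 0.05 over 11929 genes). This is 4.55% of the members, against 8.26% of all tested genes called higher and 9.65% called lower. The called genes were Ccnd2, a cyclin of S phase entry, and Nusap1, a microtubule-binding protein of the mitotic spindle. The same 2 genes were the only members whose groups did not overlap, each with all TG libraries above all WT libraries, which was the case for 10.0% of all tested genes (12.0% lay the other way). At an unadjusted p below 0.05 there were 7 members (15.9%, against 33.1% of all tested genes), all with positive fold changes. The share called higher was below that of the whole table in this fit but above it in 7 of 21 alternative settings. Among these were no filter on low counts (15.9 against 6.19%), limma voom (11.4 against 9.96%) and DESeq2 (6.82 against 5.11%). The fit with no filter and DESeq2 tested 21291 and 21288 genes, against 11929 here. Their shares over all genes thus include many more genes with low counts.

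**Figure D3:**
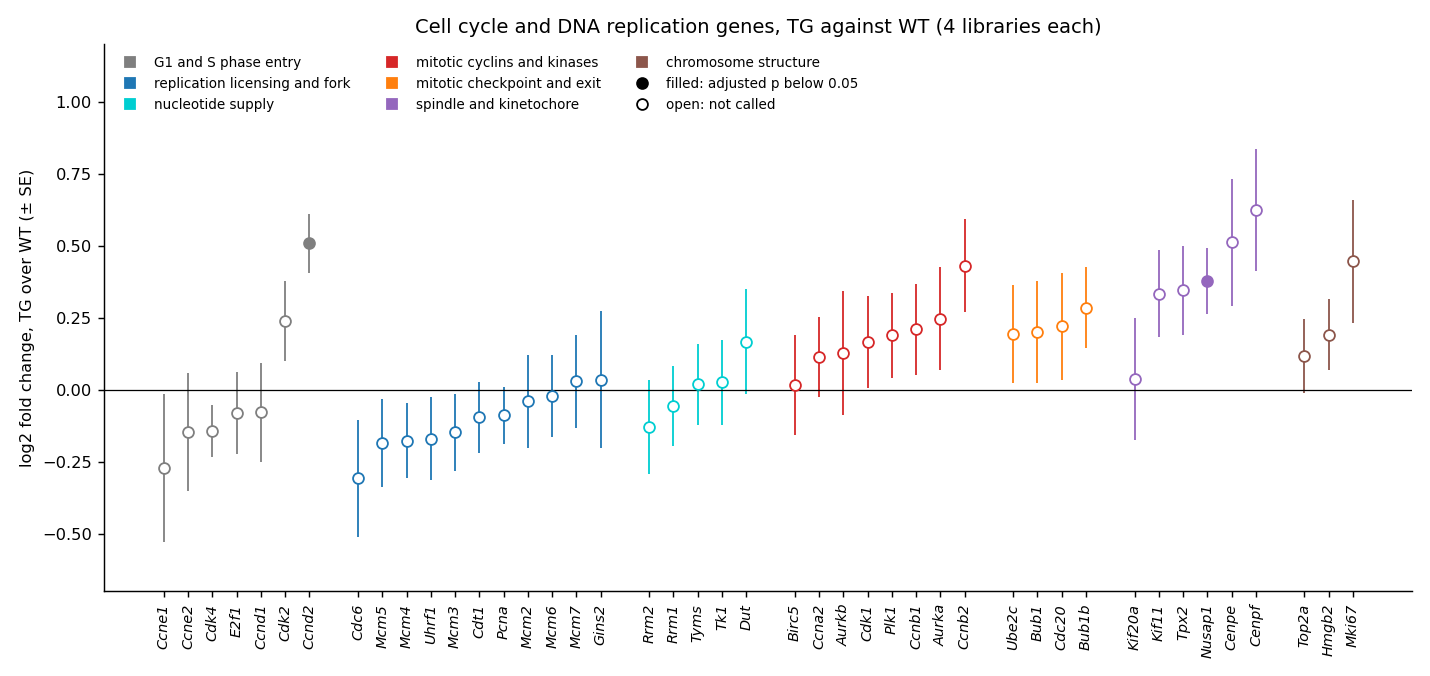
Log2 fold change of each gene, TG over WT, with its standard error (4 libraries each), by role. Ccnd2 (0.51) and Nusap1 (0.38) passed the adjusted threshold. All 18 mitotic genes lie above 0, and 11 of the 16 replication and nucleotide supply genes below it (6 with plain total counts as scaling).

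The genes of S phase entry had a median log2 fold change of -0.08, with 1 of 7 called (14.3%, against 8.26% of all tested genes called higher). Ccnd2 (ENSMUSG00000000184, GRCm39 chr6:127102125-127129156, minus strand) had 106, 99.99, 101 and 128 CPM in TG replicates 1 to 4 and 81.9, 66.5, 81.7 and 75.7 CPM in WT replicates 1 to 4. The lowest TG library thus lay above the highest WT library. Its mean rose from 76.5 ± 7.24 to 108.8 ± 13.1 CPM (SD, n = 4 each), 1.42-fold. On the log2 scale the difference was 0.51 ± 0.10 (SE here and for all log2 fold changes), and the edgeR adjusted p was 0.00467.

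Ccnd1, the gene for the D cyclin with the higher level per length, was not called (log2 fold change -0.08 ± 0.17, edgeR adjusted p = 0.784). Its values were 55.5 to 62.9 CPM in TG and 48.8 to 91.2 CPM in WT. WT replicate 3 alone lay above the TG range, WT replicate 4 (57.0 CPM) within it and WT replicates 1 and 2 (52.2 and 48.8 CPM) below it. The ratio of Ccnd2 counts to Ccnd1 counts, which needs no scaling between libraries, was 1.795, 1.803, 1.601 and 2.191 in TG and 1.57, 1.36, 0.896 and 1.33 in WT. These ratios did not overlap, though WT replicate 1 came close to TG replicate 3, and the exact two-sided permutation p was 0.0286, the smallest possible. The ratio was formed after the values were seen, and Ccnd2 was called on the same libraries, so the ratio is no independent support.

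Cdk4 had 78.1, 83.7, 80.3 and 73.4 CPM in TG and 96.5, 75.5, 91.2 and 85.6 CPM in WT. WT replicate 2 lay within the TG range and the other WT libraries above it, and the difference did not pass the test (log2 fold change -0.14 ± 0.09, edgeR adjusted p = 0.284). Cdk2, the partner of the E and A cyclins, had a log2 fold change of 0.24 ± 0.14 (adjusted p = 0.245) and E2f1, the first named activator of the E2F family, -0.08 ± 0.14 (adjusted p = 0.726). Ccne1 and Ccne2, at 1.75 to 4.28 CPM in all libraries, were the least precise of the group, with log2 fold changes of -0.27 ± 0.26 and -0.15 ± 0.20.

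None of the 11 members of replication licensing and the fork was called, and their median log2 fold change was -0.10. Of these, 2 (Mcm7 at 0.03 and Gins2 at 0.03) were fitted above 0 and 9 below. Pcna had 34.0, 38.1, 36.2 and 31.6 CPM in TG and 37.8, 32.0, 42.2 and 36.8 CPM in WT. The groups overlapped almost wholly (log2 fold change -0.09 ± 0.10, edgeR adjusted p = 0.564). The 6 subunits of the MCM helicase, Mcm2 to Mcm7, had log2 fold changes from -0.19 (Mcm5) to 0.03 (Mcm7), none with an adjusted p below 0.368. Mcm6, whose promoter is printed above with 3 matches of the E2F letters, had 44.2, 53.9, 49.2 and 43.0 CPM in TG and 47.5, 36.6, 63.7 and 45.3 CPM in WT. All 4 TG values thus fell between the lowest and the highest WT value. Cdc6, which loads the helicase onto origins, had the lowest log2 fold change of all members, -0.31 ± 0.20 (adjusted p = 0.309). Cdt1, its partner in loading, had -0.10 ± 0.12, and Uhrf1, which carries DNA methylation through replication, -0.17 ± 0.14.

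The 5 genes of nucleotide supply had a median log2 fold change of 0.02, and none was called. Dut, the dUTPase that keeps uracil out of DNA, had the highest level per length of the group. It had 16.5, 18.2, 16.3 and 15.5 CPM in TG and 15.8, 8.91, 19.4 and 15.1 CPM in WT. WT replicate 2 alone was far below the rest, and the log2 fold change was 0.17 ± 0.18 (edgeR adjusted p = 0.555). It turned to -0.02 without WT replicate 2. The ribonucleotide reductase subunits Rrm1 and Rrm2 had log2 fold changes of -0.06 ± 0.14 and -0.13 ± 0.16, thymidylate synthase (Tyms) 0.02 ± 0.14 and thymidine kinase (Tk1) 0.02 ± 0.15.

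None of the 8 mitotic cyclins, kinases and their partners was called, but all 8 were fitted above 0, with a median log2 fold change of 0.18. Ccna2, cyclin A2 and the highest per length of the group, had 31.6, 39.5, 38.4 and 34.3 CPM in TG and 36.5, 27.4, 42.2 and 26.9 CPM in WT (log2 fold change 0.11 ± 0.14, edgeR adjusted p = 0.607). WT replicate 1 lay within the TG range, WT replicate 3 above it and the other 2 WT libraries below it. Ccnb2, a B cyclin that drives entry into mitosis, came closest to the threshold. Its levels were 18.2, 19.4, 22.8 and 17.0 CPM in TG and 16.4, 11.4, 18.5 and 11.2 CPM in WT, a log2 fold change of 0.43 ± 0.16 with an adjusted p of 0.0786. Only WT replicate 3 reached into the TG range. The mitotic kinase Cdk1 had a log2 fold change of 0.17 ± 0.16, Plk1 0.19 ± 0.15, Aurka 0.25 ± 0.18 and Aurkb 0.13 ± 0.21. Birc5 (survivin), which sits with Aurkb in the chromosomal passenger complex, had 0.02 ± 0.17.

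The 4 genes of the mitotic checkpoint and exit were likewise all fitted above 0, with a median log2 fold change of 0.21, and none was called. Cdc20, the activator of the anaphase promoting complex, had 16.4, 19.4, 21.8 and 15.7 CPM in TG and 18.1, 12.0, 21.1 and 11.8 CPM in WT. WT replicates 1 and 3 lay within the TG range and WT replicates 2 and 4 below it (log2 fold change 0.22 ± 0.19, edgeR adjusted p = 0.441). The checkpoint kinase genes Bub1 and Bub1b had log2 fold changes of 0.20 ± 0.18 and 0.29 ± 0.14. Ube2c, the ubiquitin-conjugating enzyme of the same complex, had 0.19 ± 0.17.

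The 6 spindle and kinetochore genes had the highest median log2 fold change of the 7 groups, 0.36, and all 6 were fitted above 0. Of these, 1 was called (16.7%, against 8.26% of all tested genes called higher). An unadjusted p below 0.05 was reached by 5 (83.3%, against 33.1% of all tested genes), which vary together and are not separate results. Nusap1 (ENSMUSG00000027306, GRCm39 chr2:119448779-119481725, plus strand) had 17.2, 20.3, 20.7 and 17.6 CPM in TG and 14.2, 15.6, 16.2 and 12.4 CPM in WT, so that all TG libraries lay above all WT libraries. Its mean rose from 14.6 ± 1.71 to 18.9 ± 1.77 CPM (SD, n = 4 each), 1.30-fold, or 0.38 ± 0.11 as log2 fold change (edgeR adjusted p = 0.0348). The log2 fold change ran from 0.30 to 0.43 when each library was left out in turn, and the call did not hold without any 1 of 5 libraries. The adjusted p was then 0.0511 without TG replicate 1, 0.108 without TG replicate 2, 0.0951 without TG replicate 3, 0.0624 without WT replicate 1 and 0.0992 without WT replicate 4.

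The other spindle and kinetochore genes did not pass the adjusted threshold. Tpx2, which activates Aurora A at the spindle, had 17.6, 19.9, 19.3 and 18.6 CPM in TG and 16.9, 12.0, 19.4 and 11.1 CPM in WT (log2 fold change 0.34 ± 0.15, edgeR adjusted p = 0.137). Kif11, the motor that pushes spindle poles apart, had 26.7, 31.6, 28.8 and 26.8 CPM in TG and 23.9, 17.8, 30.5 and 18.2 CPM in WT (log2 fold change 0.33 ± 0.15, adjusted p = 0.144). For both, WT replicate 3 alone lay within the TG range.

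The kinetochore genes Cenpe and Cenpf had the highest fitted fold changes among the members along with Ccnd2. Cenpe had 14.8, 16.7, 17.0 and 9.50 CPM in TG and 8.07, 9.89, 14.7 and 7.96 CPM in WT (log2 fold change 0.51 ± 0.22, edgeR adjusted p = 0.130). TG replicate 4 stood with the WT libraries. Cenpf had 15.8, 17.9, 17.7 and 15.2 CPM in TG and 6.55, 11.4, 16.1 and 8.93 CPM in WT (log2 fold change 0.62 ± 0.21, adjusted p = 0.0619), with WT replicate 3 within the TG range. Kif20a, a motor of cytokinesis, had 0.04 ± 0.21. Ccnb2, Kif11, Cenpe and Cenpf are given in full here because of their unadjusted p, after their values were seen.

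All 3 genes of chromosome structure were fitted above 0 (median 0.19), and none was called. Top2a had 101.7, 114.9, 108.8 and 94.4 CPM in TG and 95.04, 82.1, 126.6 and 83.2 CPM in WT (log2 fold change 0.12 ± 0.13, edgeR adjusted p = 0.556). The TG libraries lay within the WT range. Mki67, the proliferation antigen that coats mitotic chromosomes, had 84.9, 88.7, 95.2 and 89.9 CPM in TG and 41.5, 69.3, 95.8 and 56.6 CPM in WT. Its TG libraries were close together and the WT libraries spread over more than a doubling, and the log2 fold change of 0.44 ± 0.21 had an adjusted p of 0.182. Hmgb2, a chromatin protein abundant in dividing cells, had 0.19 ± 0.12.

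WT replicate 3 bore on these counts more than any other library. Without it, 9 members were called higher (Ccnd2, Ccnb2, Bub1b, Tpx2, Kif11, Cenpe, Cenpf, Nusap1 and Mki67) and 0 lower, and 8 of the 9 are mitotic or chromosome structure genes. This was 20.5% of the members, against 7.56% of all genes called higher and 8.91% called lower in the same setting, so that the members' share, below that of the whole table with all libraries, was above it without WT replicate 3. With WT replicate 3 in place and TG replicate 1, 2 or 3 or WT replicate 1 or 4 left out, Ccnd2 was the single member called.

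The median fold change of the mitotic members was above that of the replication and nucleotide supply members, a difference that was not tested. Single members overlapped, and Dut (0.17) lay above Birc5 (0.02), Kif20a (0.04), Ccna2 (0.11) and Aurkb (0.13), for example. All 18 mitotic members were fitted above 0, with a median log2 fold change of 0.21, and 5 of the 16 replication and nucleotide supply members were, with a median of -0.07. Over all tested genes, 51.3% were fitted above 0 and the median was 0.01. With plain total counts as scaling, 10 of the 16 replication and nucleotide supply members were fitted above 0 (median 0.04), and without WT replicate 3 there were 11 (median 0.07). Without WT replicate 2 there were 0 (median -0.16), and in the libraries without and with Y-linked counts taken alone there were 14 (median 0.06) and 2 (median -0.21). The sign of their fold changes thus rested on the scaling and on the libraries included. Of the mitotic members, 15 to 18 were fitted above 0 under every setting run, with a median from 0.11 without WT replicate 2 to 0.39 without WT replicate 3. Members of a set vary together, so that these signs are not independent of each other. Single members of either set other than Nusap1 did not pass the test. The gap between both medians was 0.29, and it ran from 0.25 to 0.34 over 21 alternative settings, which left out each library in turn, changed the scaling, the filter or the tool, added the replicate number or Y-linked counts as a term, took libraries with and without Y-linked counts alone, or used an offset for exon length and GC content. The last was added after seeing the data and gave the upper end. The lower end was that of the libraries without Y-linked counts alone.

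The same contrast was seen within each library. The counts of the 18 mitotic members divided by those of the 16 replication and nucleotide supply members gave 0.8293, 0.842, 0.907 and 0.841 in TG replicates 1 to 4 and 0.711, 0.727, 0.698 and 0.605 in WT replicates 1 to 4. The groups did not overlap, and WT replicate 3, with the highest sums of both sets, had a ratio like those of the other WT libraries. The mean ratio was 0.855 ± 0.0351 (SD, n = 4) for TG and 0.685 ± 0.0549 (SD, n = 4) for WT, a difference of 0.32 on the log2 scale, with a pooled SD between replicates of 0.094. Its value does not depend on the scaling of the library. The groups were also apart when each gene had equal weight (geometric means, 0.810 to 0.902 in TG and 0.605 to 0.723 in WT) and when counts were divided by exon length (0.980 to 1.11 and 0.728 to 0.886). Both sets were joined from the fixed role groups after their values were seen, so the ratio is a description with no test.

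**Figure D4:**
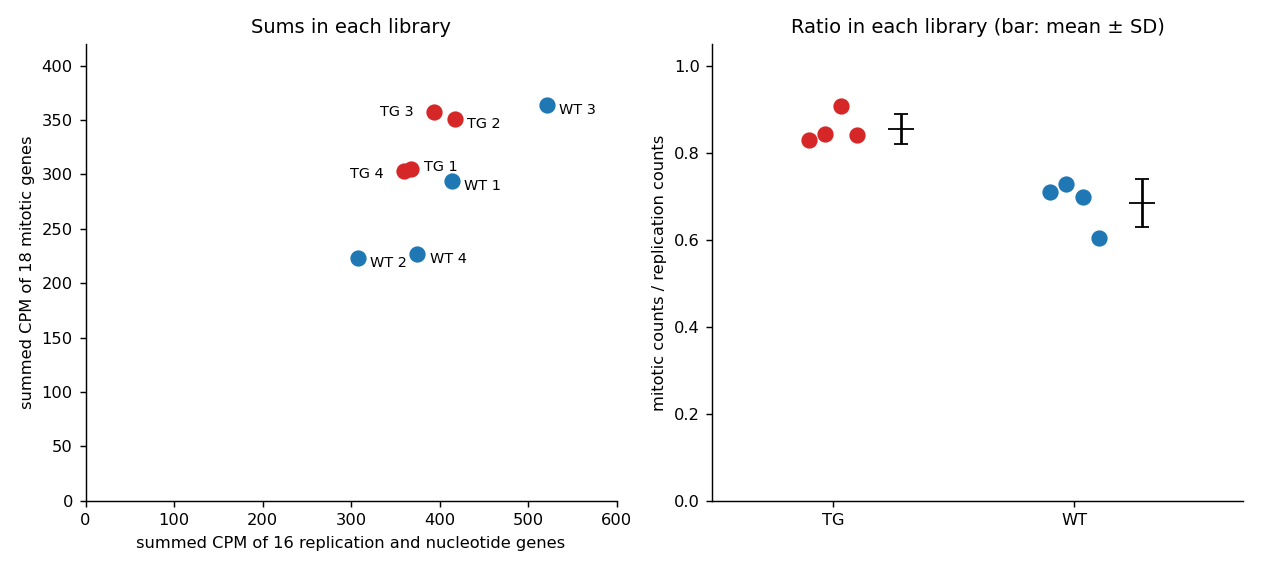
Left, summed CPM of the 18 mitotic genes against that of the 16 replication and nucleotide supply genes in each library, TG in red and WT in blue. Right, the ratio of the summed counts in each library with the mean and SD of each group. The TG ratios (0.8293 to 0.907) lie above the WT ratios (0.605 to 0.727).

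The sums themselves overlapped. The 16 replication and nucleotide supply members summed to 360 to 417 CPM in TG and 307 to 521 CPM in WT, and the 18 mitotic members to 303 to 357 CPM in TG and 224 to 364 CPM in WT. WT replicates 2 and 4 had the lowest mitotic sums, and WT replicate 3 the highest of both. Fold changes in the whole table also moved with exon length, from a median of -0.04 in the fifth of genes with the shortest exon length to 0.07 in the longest. With an offset for exon length and GC content, the mitotic to replication ratios were 0.836 to 0.908 in TG and 0.596 to 0.731 in WT.

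Each group held 2 kinds of library. The 4 Y-linked genes examined had 0 counts in replicates 1 and 2 of either group, against 897 to 1564 in replicates 3 and 4. No member passed the test for a fold change that differed between both kinds, which sets 2 libraries against 2 in each (edgeR interaction test, lowest adjusted p = 0.787, and 0.0251% of all tested genes called). At an unadjusted p below 0.05 there was 1 member, Mcm4 (2.27%, against 5.73% of all tested genes). The fitted interaction was below 0, a lower fold change in the libraries with Y-linked counts, for 15 of the 16 replication and nucleotide supply members. It was below 0 for 16 of the 18 mitotic members, against 50.2% of all tested genes. Members vary together, so these signs are not independent of each other. WT replicate 3, with the highest level of all libraries for 28 members, held Y-linked counts. WT replicate 2, with the lowest level for 25 members, held none. The log2 difference of the mitotic to replication ratio was 0.22 in the libraries lacking Y-linked counts and 0.43 in the others. With either kind alone, 2 libraries against 2, neither Ccnd2 (log2 fold changes 0.47 and 0.54, edgeR adjusted p = 0.0564 and 0.0669) nor Nusap1 (0.33 and 0.43, adjusted p = 0.243 and 0.222) passed the test, with fold changes close to those of all 8 libraries. In the libraries without Y-linked counts Cenpe and Cenpf were called higher instead (4.55% of the members, against 4.15% of all genes). In the others 0 members were, where 0.94% of all genes were called higher.

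**Figure D5:**
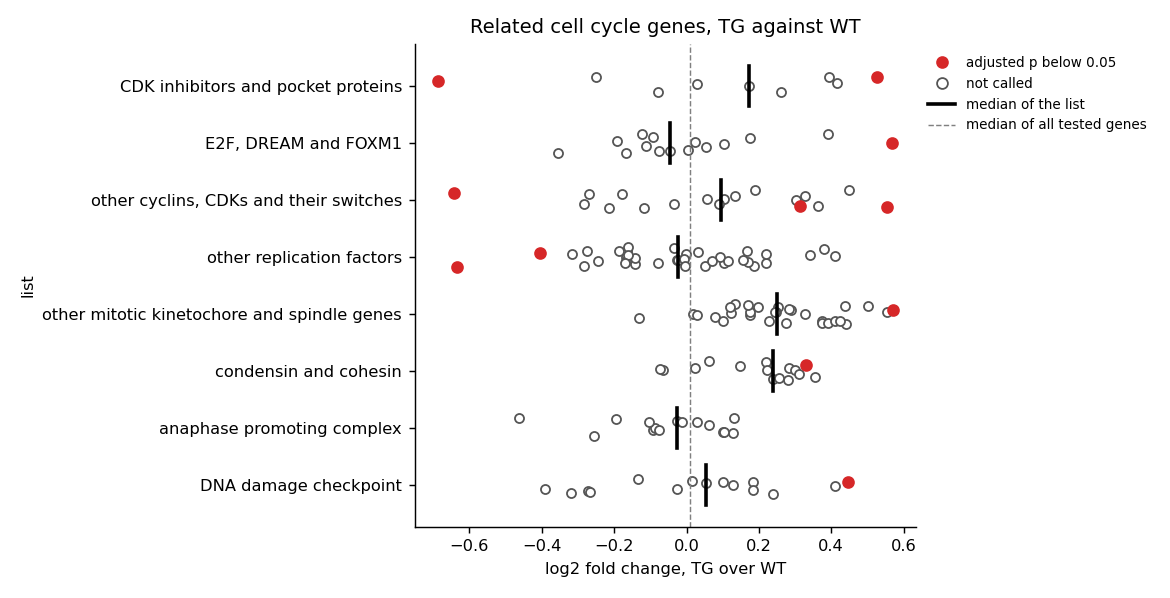
Log2 fold change, TG over WT, of 154 related cell cycle genes in 8 lists (points, filled red where called), with the median of each list (bar) and of all tested genes (dashed line). The mitotic list and the condensin and cohesin list have medians of 0.25 and 0.24, the replication list -0.02.

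The pathway around the members was examined with 155 related genes in 8 lists, of which 154 were tested. Of these, 7 (4.55%) were called higher and 4 (2.60%) lower, against 8.26 and 9.65% of all tested genes. The share called higher was above that of all genes in 5 of the 21 alternative settings, by most without WT replicate 3 (14.9 against 7.56%), and the share called lower in none of them. The 30 further mitotic, kinetochore and spindle genes had a median log2 fold change of 0.25 and 29 of them (96.7%) were fitted above 0. Among 37 further replication factors 15 (40.5%) were, with a median of -0.02, against 51.3% of all tested genes. These genes were measured in the same libraries as the members, so their signs are no independent support. Condensin and cohesin genes had a median of 0.24, with 13 of 15 above 0, and the anaphase promoting complex -0.03, with 6 of 15. The ratio of the summed counts of both further lists overlapped between the groups (0.558 to 0.638 in TG and 0.471 to 0.590 in WT). It did not overlap (0.843 to 0.914 and 0.680 to 0.774) without Rfc1, the replication factor with the most counts, which was fitted higher in TG (log2 fold change 0.22 ± 0.13) and was left out after the values were seen.

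Among regulators of the G1 phase, Cdk6, the other kinase partner of the D cyclins, rose from 30.3 ± 4.50 to 44.6 ± 5.82 CPM (log2 fold change 0.56 ± 0.12, edgeR adjusted p = 0.00692). Rbl2, the pocket protein p130 of resting cells, rose from 32.0 ± 3.19 to 46.1 ± 4.24 CPM (0.53 ± 0.10, adjusted p = 0.00317). The CDK inhibitor Cdkn2b, which binds CDK4 and CDK6, fell from 12.8 ± 2.71 to 7.92 ± 1.35 CPM (-0.69 ± 0.17, adjusted p = 0.0137). Cdkn1a, the p53 target p21, had 45.4 ± 4.97 CPM in TG and 48.1 ± 15.0 CPM in WT (-0.08 ± 0.20, adjusted p = 0.813). The other CDK inhibitors tested were fitted above 0 and not called, at 0.26 (Cdkn1b), 0.39 (Cdkn2c), 0.42 (Cdkn2d) and 0.17 (Cdkn1c). Ccnd3, another D cyclin gene, was fitted below 0 and not called (-0.28 ± 0.10, adjusted p = 0.054). Of the 9 CDK inhibitors and pocket proteins tested, 1 was called higher and 1 lower (11.1% each, against 8.26 and 9.65% of all tested genes).

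Tfdp2, a dimerization partner of E2F proteins, rose from 22.4 ± 1.04 to 33.3 ± 5.17 CPM (log2 fold change 0.57 ± 0.11, edgeR adjusted p = 0.00388). Foxm1, the transcription factor of mitotic genes, had 13.0 ± 2.28 CPM in TG and 9.90 ± 1.498 CPM in WT, and its log2 fold change of 0.39 ± 0.15 did not pass the test (adjusted p = 0.0857). The proto-oncogene Myc rose from 35.7 ± 4.00 to 44.4 ± 3.72 CPM (0.32 ± 0.10, adjusted p = 0.0408). Cks1b, a small CDK-binding subunit, fell from 14.6 ± 1.44 to 9.32 ± 1.22 CPM (-0.64 ± 0.13, adjusted p = 0.00467).

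Among the replication factors, 2 of 37 were called, both lower (5.41%, against 9.65% of all tested genes). Fen1, the flap endonuclease that trims Okazaki fragments, went from 30.4 ± 6.81 to 19.6 ± 1.95 CPM (log2 fold change -0.63 ± 0.14, edgeR adjusted p = 0.00922) and Orc2, a subunit of the origin recognition complex, from 13.4 ± 0.967 to 10.1 ± 1.42 CPM (-0.40 ± 0.13, adjusted p = 0.0401). Of the further mitotic genes 1 of 30 was called (3.33%), and of condensin and cohesin 1 of 15 (6.67%), both higher, against 8.26% of all tested genes. Kif15, a spindle motor that works beside Kif11, went from 8.80 ± 2.20 to 13.1 ± 1.43 CPM (0.57 ± 0.16, adjusted p = 0.0251) and Stag2, a cohesin subunit, from 53.2 ± 3.15 to 66.9 ± 6.10 CPM (0.33 ± 0.09, adjusted p = 0.0201). Atm, the kinase that responds to DNA double-strand breaks, rose from 21.4 ± 3.22 to 29.2 ± 4.92 CPM (0.45 ± 0.13, adjusted p = 0.0336), the single called gene of 15 in the DNA damage checkpoint list. Of the 7 related genes called higher, 6 had an exon length of at least 10134 bases, the bound of the longest 20% of genes (Myc did not), and of the 4 called lower, Cdkn2b, Cks1b and Fen1 were among the shortest 20% (up to 3493 bases), as the trend with exon length over the whole table runs. With the offset for exon length and GC content all 11 kept their sign and 10 their call, the exception being Stag2 (log2 fold change 0.25, adjusted p = 0.0554). With plain total counts as scaling, none of the 4 related genes reported here as lower was called. In that setting 2.2% of all genes were called lower, against 9.65% in the main fit.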

How the data were processed

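The authors deposited 1 table of whole-number read counts per Ensembl gene for the 8 libraries, made from stranded poly(A) RNA libraries. The submitters' processing notes name FastQC 0.12.0, STAR 2.7.0a, DESeq2 and the mm39 build. The tool that counted reads is not given in the sources used here, nor is the handling of reads shared by similar genes. Symbols, positions and exon lengths came from GENCODE M39 on GRCm39 (54749 of 55414 IDs). Counts were fitted with edgeR 4.0.16 in R 4.3.3 (robust quasi-likelihood, TMM factors, default filter by group, all 8 libraries, group as the only term, Benjamini-Hochberg at 0.05). Standard errors were derived from each fold change and its F statistic. DESeq2 1.42.0, limma 3.58.1 and other scalings, filters and library sets were alternatives. Marker shares used exact two-sided permutation tests over 70 assignments.

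Named in full were the called members, the highest per exon length of each role, at most 3 called genes of each related list, and Cdkn1a and Foxm1. Outside this rule, library values were added for Ccnb2, Kif11, Cenpe and Cenpf (unadjusted p, after seeing the values) and for Ccnd1, Mcm6 and Mki67. The members and lists were chosen with earlier results of these data known. Of the related symbols, 1 matched no gene. Intervals cover only counting error, as reads carried no molecular identifiers and are not independent molecules. The labels number the replicates without naming animals, so p-values measure the spread between these libraries. No replicate pair looked like a duplicated library (chi-square per degree of freedom 5.2 or more).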

Additional observations from a re-analysis of the deposited data

Results flagged for a closer look

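In groups of 4 libraries, 5 of 124 values examined had a library far from the other 3 by Dixon's criterion (gap over range, given in brackets, above its 95% critical value for 4), where chance gives about 6.2. The member share of counts was 0.159% in WT replicate 3 against 0.0908 to 0.0964% in the other WT libraries (0.919). The ratio of mitotic to replication counts was 0.907 in TG replicate 3 against 0.8293 to 0.842 in the other TG libraries (0.833), on the side away from WT. Hmgb2 had 36.8 CPM in TG replicate 4 against 38.8 to 38.9 CPM (0.931). Cdkn2b had 5.91 CPM in TG replicate 2 against 8.38 to 8.81 CPM (0.854), and Cks1b had 16.7 CPM in WT replicate 3 against 13.7 to 14.1 CPM (0.85). The last pair also lies on the side away from the other group.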

How the results depend on the processing

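No member was called lower under any alternative run. The members called higher, 2 as reported, numbered 3 with DESeq2, 5 with limma voom, 1 with plain total counts for scaling, 7 without a filter on low counts, 0 in the libraries with Y-linked counts alone and 1 to 9 when each library was left out in turn (9 without WT replicate 3). The related genes called higher, 7 as reported, numbered 8, 17, 4, 11 and 0 under the first 5 of these. They numbered 3 to 23 when each library was left out (23 without WT replicate 3). Their shares in the first 5 were 5.19, 11, 2.6, 7.14 and 0%, against 5.11, 9.96, 6.6, 6.19 and 0.94% of all genes. The share of members called higher was above that of all genes in 7 of 21 settings (6.82 against 5.11% with DESeq2, 11.4 against 9.96% with voom, 15.9 against 6.19% without a filter). It was 2.27 against 6.6% with total counts and 0 against 0.94% in libraries with Y-linked counts alone. The related genes called lower, 4 as reported, numbered 0 with total counts and 1 and 0 in libraries without and with Y-linked counts alone. They numbered 10 with an offset for exon length and GC content, chosen after seeing the data. In these 4 settings the shares were 0, 0.649, 0 and 6.49%, against 2.2, 5.29, 0.865 and 13.5% of all genes. Plain total counts shifted the median fold change over all genes (log2) from 0.01 to 0.12 and the share of calls that were higher from 46.1 to 75%, and the offset moved that share to 33.8%. Nusap1 was not called with total counts (log2 fold change 0.49, adjusted p = 0.0856).

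Same-numbered libraries deviated together only weakly (correlations 0.0666 to 0.286, with 2 of 4 pairs under 0.1), so the numbers were not taken as pairs. With a replicate block, 6 members (Ccnd2, Ccnb2, Cenpe, Cenpf, Nusap1 and Mki67) and 12 related genes were called higher (13.6% of the members, against 8.71% of all tested genes). With the offset and the replicate block, 6 members (13.6%) and 8 related genes (5.19%) were called higher, against 7.52% of all genes, and 9 related genes (5.84%) lower, against 14% of all genes.

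Of 546 fold changes of single genes under alternatives, 8 changed sign, none of them called. Pcna was at 0.026 with total counts and 0.045 without Y-linked libraries, Dut at -0.115 and Top2a at -0.041 in libraries with Y-linked counts alone, and Dut ran from -0.017 (without WT replicate 2) to 0.328 (without WT replicate 3) when each library was left out. Cdkn1a was at 0.063 with total counts, 0.013 in libraries with Y-linked counts alone and between -0.222 (without WT replicate 2) and 0.106 (without WT replicate 1) when each library was left out. The causes were not tested. The lowest member count, 24 in a library, limits Ccne1 most.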
